A study of Drosophila melanogaster and Drosophila biarmipes with 20 samples.

Results

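Between 60% and 69% of pupal development, the wings of male Drosophila biarmipes gained and lost regions of accessible chromatin in nearly equal number. On the merged union of 10 D. biarmipes region lists, which held 106112 regions, 70662 were listed by at least 1 of the 4 libraries of these stages and are called assessed here. A region was taken as opened where both 69% libraries listed it and neither 60% library did, and as closed where the reverse held. There were 4282 opened regions, 6.06% of the assessed regions, and 4629 closed regions, 6.55%, so 8911 regions or 12.6% moved by this rule. A further 35771 regions, 50.6%, were listed by all 4 libraries. The rule read these same lists, so the counts are a description and carry no test.

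The study profiled chromatin accessibility by ATAC-seq in D. biarmipes and D. melanogaster at 5 stages of pupal development (0%, 48%, 60%, 69% and 78%), with 2 biological replicates per species and stage. ATAC-seq uses a transposase that inserts sequencing adapters where DNA is not wrapped in nucleosomes or otherwise covered, so a listed region is one where reads piled up above the level the caller expected. The stages were chosen by the course of yellow, a gene needed for black pigment, in the wing. Each library of 60% and of 69% came from 24 pupal wings of males, from a line that the labels call a genome line and that was kept at 20 °C; they name no transgene and no treatment. How the wings were divided between the replicates is not stated in the labels, and differences between libraries therefore measure only the spread between these preparations. By the labels' protocol, wings older than 60% were cut before the tissue was broken up, so this step and the stage cannot be told apart at 69%. The 0% libraries are of the wing disc, and those of 48% came from 14 to 17 wings. Tissue or input at these stages thus also differs from that at 60% and 69%.

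The pupal wing of a fly is a folded sheet formed by a dorsal and a ventral epithelium, with veins, sensory cells along the margin and, on most cells, a single hair. In the later part of pupal life these cells lay down the adult cuticle and supply the enzymes and substrates of pigment and hardening. Males of D. biarmipes carry a dark spot near the wing tip, for which yellow is expressed in a matching pattern in the pupal wing, whereas D. melanogaster wings lack the spot. Enhancers and promoters in use are usually accessible, and developing insect tissues open and close many such elements as ecdysone levels change. In whole wings, a region that is accessible in fewer cells and one that is less accessible in each cell cannot be told apart. No D. biarmipes genome or gene annotation was used here, so regions are given by scaffold and position, no gene is named, and the tissue label was not checked against marker genes.

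The 4 libraries differed little in list length. The 60% libraries listed 63160 and 60363 regions from 123870286 and 72540538 sequence tags, and the 69% libraries 62113 and 58859 regions from 115620872 and 95460031 tags. The caller asked for at least 137 and 87 tags in a window at 60% and 129 and 109 at 69%, in step with depth. The regions covered 18.27 and 17.03 Mb at 60% and 18.14 and 16.77 Mb at 69%, so within each stage the list of replicate 1 was longer and covered more. Median region width was 187 and 188 bp at 60% and 197 and 190 bp at 69%. The share of tags that fell in listed regions was 44.2% and 43.0% at 60% (mean 43.6 ± 0.870, SD, n = 2) and 38.2% and 35.6% at 69% (36.9 ± 1.80, n = 2), with no overlap between the stages. An exact two-sided permutation test of 2 libraries against 2 cannot go below p = 0.333, the value it gave for this share and for median width, while list length and covered length gave p = 0.667. A lower share of tags in listed regions thus went with the later stage, and its part in the calls was not tested.

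List overlap was greater within a stage than across the stages. The Jaccard index, the number of bases covered by both lists divided by the number covered by either, was 0.773 between the 60% libraries and 0.761 between the 69% libraries. Across the stages its 4 values lay between 0.632 and 0.646. The 60% libraries reached 0.568 to 0.610 with those of 48%, and the 69% libraries 0.649 to 0.679 with those of 78%. Between 69% and 48% the index lay between 0.496 and 0.505, and between 60% and 78% it was 0.543 to 0.555. All 4 values between 69% and 78% were above all 4 between 60% and 69%, which in turn were above all 4 between 48% and 60%.

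Of 44511 regions listed by both 60% libraries, 10.4% were closed at 69%, and of 43453 listed by both 69% libraries, 9.85% were opened. Many regions missed the rule by 1 library. Among regions that the 2 libraries of 60% both listed, 2825 were missing from replicate 2 of 69% alone and 1286 from replicate 1 alone. Among those that both 69% libraries listed, 2126 were missing from replicate 2 of 60% and 1274 from replicate 1. Another 15301 regions, 21.7% of those assessed, were listed by 1 of the 4 libraries. The list of replicate 1 was the longer in both stages, and in both stages replicate 2 was more often the missing one.

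Taken 1 same-numbered pair at a time, the stages differed more, because a region then needed 1 library per stage rather than 2. Replicate 1 alone gave 11121 opened regions, 17.4% of those listed by either library of the pair, and 10972 closed, 17.1%. Replicate 2 alone gave 10071 opened, 16.7%, and 11230 closed, 18.7%. Closed regions outnumbered opened ones in replicate 2 and not in replicate 1, and the surplus of closed regions over both pairs also turned when every list was limited to the same number of entries (4042 opened, 3902 closed). The headers of the lists place the replicate 1 libraries in a folder dated 202006 and the replicate 2 libraries in one dated 202008, so these are also the values within each dated folder.

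In D. melanogaster the same rule gave 4758 opened regions between 60% and 69%, 7.62% of 62463 assessed there, and 1661 closed, 2.66%. The D. melanogaster counts were uneven between its pairs, with 7558 closed regions in replicate 1 and 3882 in replicate 2. One of its 60% libraries had an estimated fragment length of 138 bp and 48036 regions, against 50 bp and 71280 regions in the other. The 4 D. biarmipes libraries had estimates of 52 to 56 bp. Opened regions outnumbered closed ones in both D. melanogaster pairs and in replicate 1 of D. biarmipes, and the species were not compared by a test.

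Opened and closed regions were narrow. Opened regions had a median covered length of 158 bp in replicate 1 and 139.5 bp in replicate 2 of 69%, and closed regions 154 and 139 bp in the 60% replicates. Regions listed by all 4 libraries had medians between 296 and 321 bp. Many of the moved regions were as short as the caller's single window, at most 101 bp: 26.5% and 33.3% of opened regions in the 69% replicates, 25.0% and 31.0% of closed regions in the 60% replicates, and between 5.08% and 7.72% of the regions listed throughout. The width distributions of opened and closed regions lay close to each other and apart from those of the regions listed by all 4. Narrowness was not particular to the moved regions. By full width in the union, medians were 220 bp for opened, 229 bp for closed and 455 bp for all-4-library regions. The 4 patterns with 3 of the 4 libraries had medians of 217 to 235 bp, and those with 1 library 129 to 142 bp.

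**Figure D1:**
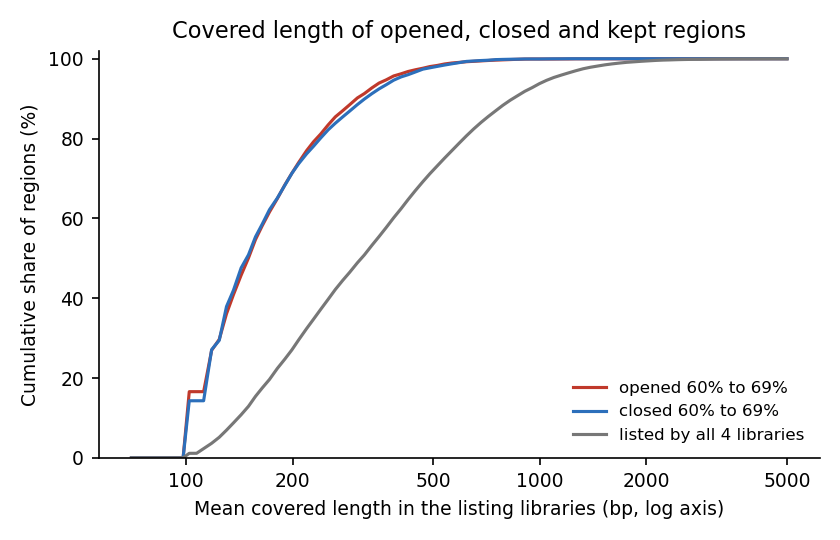
Cumulative share of regions (vertical axis, percent) by mean covered length in the libraries that list them (horizontal axis, bp, log scale), 1 curve each for opened, closed and all-4-library regions. The opened and closed curves run together, with medians of 150 and 147.5 bp, and that of regions listed by all 4 libraries lies to the right, with a median of 313 bp.

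Wide regions rarely met the rule. A mean covered length of at least 500 bp was reached by 80 opened regions (1.87%), 98 closed regions (2.12%) and 9993 regions listed by all 4 libraries (27.9%). At 1000 bp or more the numbers were 3, 3 and 2219. A wide region must lose all of its entries to count as closed, whereas a single window is lost with 1 entry, so width and the rule are not independent. Coordinates below are 1-based on the scaffolds as named in the lists.

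Ranked by mean covered length in the libraries that list it, the widest opened region lay on scaffold NW_016033940.1 from 4049024 to 4051382. Its covered length was 0 in both 60% libraries and 1961 and 2134 bp at 69%. It had also been listed over 2352 and 2060 bp at 0%, over 101 and 0 bp at 48%, and was down to 0 and 603 bp at 78%. It was thus listed over most of its length in the wing disc at 0%, nearly or fully unlisted at 48% and 60%, and listed again at 69%.

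The next widest opened regions stayed listed at 78%. The region on NW_016033946.1 from 4041272 to 4042604 covered 1270 and 1226 bp at 69% and 1261 and 1238 bp at 78%, after 300 and 354 bp at 0% and nothing at 48% and 60%. The one on NW_016033916.1 from 873844 to 875121 covered 1094 and 1109 bp at 69%, 1139 and 1043 bp at 78%, 460 and 560 bp at 0%, and 202 and 0 bp at 48%. Both had shorter entries at 0% than at 69%, and their widths at 69% and 78% overlapped.

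The other 3 of the 6 widest opened regions were also listed by all 0%, 69% and 78% libraries. On NW_016033684.1 from 1711518 to 1712507 the covered length was 504 and 627 bp at 0%, 0 and 152 bp at 48%, 965 and 851 bp at 69%, and 981 and 924 bp at 78%. On NW_016033734.1 a region from 1307873 to 1308979 covered 1073 and 1087 bp at 0%, 725 and 524 bp at 48%, 882 and 902 bp at 69%, and 745 and 671 bp at 78%. It was therefore listed at every stage other than 60%. A second region of that scaffold, from 3756316 to 3757221, covered 229 and 233 bp at 0%, 0 and 101 bp at 48%, 902 and 861 bp at 69%, and 856 and 779 bp at 78%.

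The widest closed region, on NW_016033298.1 from 5784840 to 5786487, covered 1648 and 662 bp at 60%, so its replicates differed in length. It was listed over 101 bp in each 48% library and by no library of 0%, 69% or 78%. Its covered length at 60% was above that at 48% in both replicates. The region on NW_016033057.1 from 364483 to 365743 covered 1202 and 1236 bp at 0%, 1070 and 985 bp at 48%, and 1168 and 1020 bp at 60%, then nothing at 69% and 78%.

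A region on NW_016033802.1 from 3396643 to 3400885 shortened stage by stage before it was lost. It covered 4224 and 4243 bp at 0%, 1699 and 1718 bp at 48%, 1144 and 897 bp at 60%, and 0 bp in the 69% and 78% libraries. The replicates of each of these stages lay closer to each other than to those of the next stage.

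The other 3 of the widest closed regions were absent from both 0% libraries and present by 48%. On NW_016033303.1 the region from 4473362 to 4474330 covered 904 and 797 bp at 48% and 940 and 856 bp at 60%. Another on that scaffold, from 2211513 to 2212380, covered 658 bp in each 48% library, 868 and 801 bp at 60%, nothing at 69%, and 160 and 101 bp at 78%. On NW_016033684.1 the region from 1701478 to 1702545 covered 884 and 942 bp at 48%, 1005 and 737 bp at 60%, nothing at 69%, and 0 and 176 bp at 78%. This last region ended within 10 kb of the wide opened region at 1711518 on the same scaffold.

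The libraries of the other stages decided no call, although their entries helped to set the bounds of the union regions, and they show what came before and after. Of the opened regions, the 0% libraries listed 25.3% and 29.8%, those of 48% listed 13.0% and 14.5%, and those of 78% listed 57.9% and 66.5%. Of the closed regions, the 0% libraries listed 40.3% and 46.9%, those of 48% listed 44.2% and 64.0%, and those of 78% listed 6.96% and 11.1%. Of the regions that all 4 libraries of 60% and 69% listed, the shares at these stages were 72.9% and 76.1%, 79.6% and 85.9%, and 86.1% and 90.0%. Over all assessed regions the 0% libraries listed 50.8% and 55.4%, those of 48% listed 51.1% and 59.7%, and those of 78% listed 56.6% and 62.9%. Opened regions at 78% were thus near the level of all assessed regions and at 0% and 48% below it, whereas closed regions were below it at 0% and 78% and on either side of it in the 48% libraries. Both 78% libraries listed more of the opened than of the closed regions, and both 48% libraries listed more of the closed than of the opened.

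**Figure D2:**
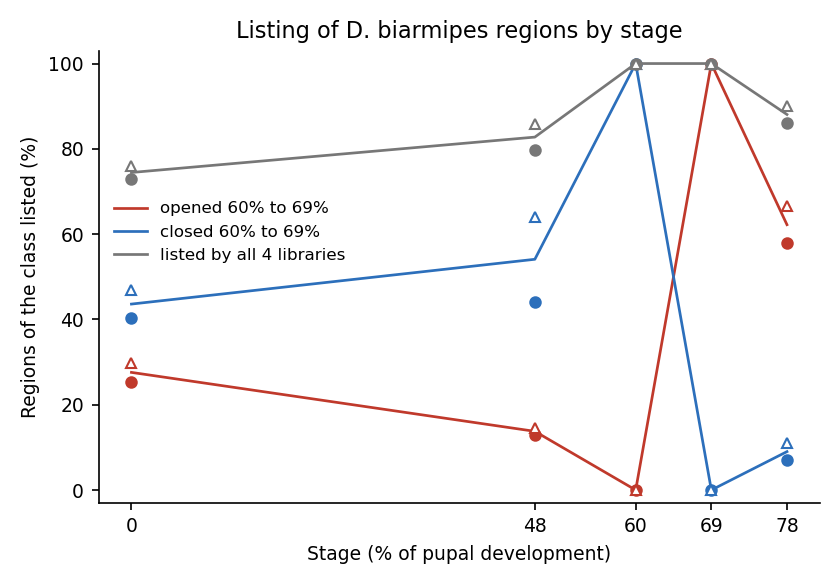
Percent of opened, closed and all-4-library regions listed by each D. biarmipes library (vertical axis) against stage in percent of pupal development (horizontal axis). Filled circles are replicate 1, open triangles replicate 2 and lines the mean of both; the values at 60% and 69% are set by the rule. Opened regions stand at 57.9% and 66.5% at 78%, closed regions at 6.96% and 11.1%.

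Of the opened regions, 2134 (49.8%) were listed by both 78% libraries, 1060 (24.8%) by 1 and 1088 (25.4%) by neither. Over all assessed regions these shares were 51.6%, 16.3% and 32.1%, so the share of opened regions in both 78% libraries was close to that of assessed regions in general. Of the closed regions, 120 (2.59%) were listed by both, 594 (12.8%) by 1 and 3915 (84.6%) by neither. Few closed regions were therefore listed again by both 78% libraries. Where a single same-numbered library stood for each stage, the 78% library listed 10.4% of the regions closed in replicate 1 and 20.9% of those closed in replicate 2.

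More than 50% of the opened regions, 2425 or 56.6%, were listed by no 0% or 48% library. Of these, 1161 were listed by both 78% libraries, 622 by 1, and 642 by neither, which leaves 642 regions, 15.0% of those opened, that the 69% libraries alone listed. A second course was listed at 0%, in the wing disc, absent from 48% and 60% and listed again at 69%. It held 685 regions (16.0%) listed by both 0% libraries and neither 48% library, of which 361 were listed by both 78% libraries. Another 325 opened regions were listed by both 48% libraries, 146 of them also by both 0% libraries. Among all-4-library regions, which are wider, the same listing at 0%, 48% and 78% was rarer for 3 of these courses. It held for 3.13% against 27.1% of opened regions for the 1161, and 0.814% against 15.0% for the 642. For the 361 it was 1.96% against 8.43%.

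The 3 widest opened regions that no earlier library and both 78% libraries listed were all over 700 bp at 69%. On NW_016033960.1, from 5160125 to 5161057, the covered length was 846 and 764 bp at 69% and 927 and 918 bp at 78%. On NW_016033940.1, from 4001388 to 4002248, it was 789 and 808 bp, then 843 and 744 bp. On NW_016033734.1, from 4985335 to 4986104, it was 757 and 722 bp, then 672 and 748 bp. The first was longer in both 78% libraries than in both 69% libraries, and in the others the replicates of the stages overlapped.

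Closed regions had an earlier record more often than opened ones. Both libraries of 0% and both of 48% listed 972 of them (21.0%), of which 854 were listed by neither 78% library. A further 781 (16.9%) were listed by neither 0% library and both 48% libraries, 692 of them by neither 78% library. By contrast, 382 were listed by both 0% and neither 48% library, and 950 (20.5%) by none of the 4 earlier libraries. The 60% libraries alone listed 816 regions, 17.6% of those closed. Among all-4-library regions, 55.3% were listed by every library of 0%, 48% and 78%, so an early record was more frequent there than the 21.0% of closed regions. The listing of the 854 held for 2.18% of all-4-library and 18.5% of closed regions. That of the 692 held for 0.951% and 14.9%, and absence from 0%, 48% and 78% for 0.814% and 17.6%. Besides the regions on NW_016033057.1 and NW_016033802.1 described above, the widest region that was listed by all earlier libraries and then lost lay on NW_016033966.1 from 5616494 to 5617621. It covered 1128 and 1056 bp at 0%, 733 and 924 bp at 48%, and 812 and 832 bp at 60%.

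For opened regions at 78% and closed regions at 48%, the wider ones were listed more often. Among the 441 opened regions with a mean covered length of at least 300 bp, 93.9% and 93.7% were listed in the 78% libraries, against 44.2% and 55.9% of the 2140 under 150 bp. Among the 554 closed regions of at least 300 bp, 83.0% and 88.1% were listed at 48% and 5.42% and 7.04% at 78%. For the 2349 closed regions under 150 bp, the values were 25.2% and 51.9% at 48% and 7.58% and 13.3% at 78%, so at 78% the narrower closed regions were the more often listed. The width classes were listed at different rates among all-4-library regions too, at 95.3% and 96.3% at 78% for those of at least 300 bp and at 62.9% and 74.2% for those under 150 bp.

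The comparison of 48% with 78% shares no library with that of 60% with 69%, and both 48% libraries stand in the folder dated 202006. By the same rule it gave 7601 opened regions, 10.4% of 73382 assessed, and 7949 closed, 10.8%. Of the regions opened between 60% and 69%, 38.6% were also opened between 48% and 78% and 1.52% were closed. Of the regions closed between 60% and 69%, 36.5% were closed there and 0.843% opened. Among regions listed by all 4 libraries of 60% and 69%, the shares were 5.77% and 3.47%, and among all assessed regions 9.29% and 7.53%. The direction in that comparison was thus the same for most of the moved regions that it called.

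Regions that kept their listing also changed in covered length. In all, 1.697 Mb of sequence was covered by both 69% libraries and neither 60% library, of which 38.6% lay in opened regions, 51.6% inside regions that all 4 libraries listed and 9.82% elsewhere. For the 1.883 Mb covered at 60% and not at 69%, the shares were 38.3% in closed regions, 50.1% in regions listed by all 4 and 11.6% elsewhere. More of the gained and lost bases thus lay inside regions listed throughout than in the opened and closed regions. Regions listed throughout also held more covered sequence, with 12.1 Mb covered by all 4 libraries. The shares are therefore not rates per covered base.

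Among the 35771 regions listed by all 4, 12658 (35.4%) were longer at 69% in both same-numbered pairs, 11172 (31.2%) shorter in both, and 9572 (26.8%) went opposite ways in the pairs. The median log2 ratio of covered length, 69% over 60%, was 0.01 in replicate 1 and 0 in replicate 2. A change of at least 2-fold in both pairs was found for 593 longer regions (1.66%) and 704 shorter ones (1.97%).

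Regions that moved in the same direction lay next to each other more often than regions in general. Of the 4121 opened regions with a following assessed region on their scaffold, that region was opened for 454 (11.0%) and closed for 181 (4.39%). Over all 68495 such neighbours, 6.03% were opened and 6.70% closed. After a closed region the next was closed for 501 of 4591 (10.9%) and opened for 200 (4.36%). Like direction was thus above, and unlike direction below, the level over all regions, in both cases.

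The neighbour shares varied with distance. Where the gap was under 500 bp, 13.2% of regions after an opened one were opened, against 6.02% after any region. After a closed one 12.4% were closed, against 5.54% after any. At gaps from 5000 to 20000 bp the shares were 9.73% opened after opened, against 5.21%, and 9.70% closed after closed, against 9.10%. For closed regions the share did not fall steadily with distance: it was 11.2% against 7.68% at gaps from 2000 to 5000 bp, and 11 of 51 (21.6%) against 13.2% at gaps of 20000 bp or more. Neighbouring entries within 500 bp can be fragments of 1 accessible stretch, so the shares at short gaps count some stretches more than once.

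**Figure D3:**
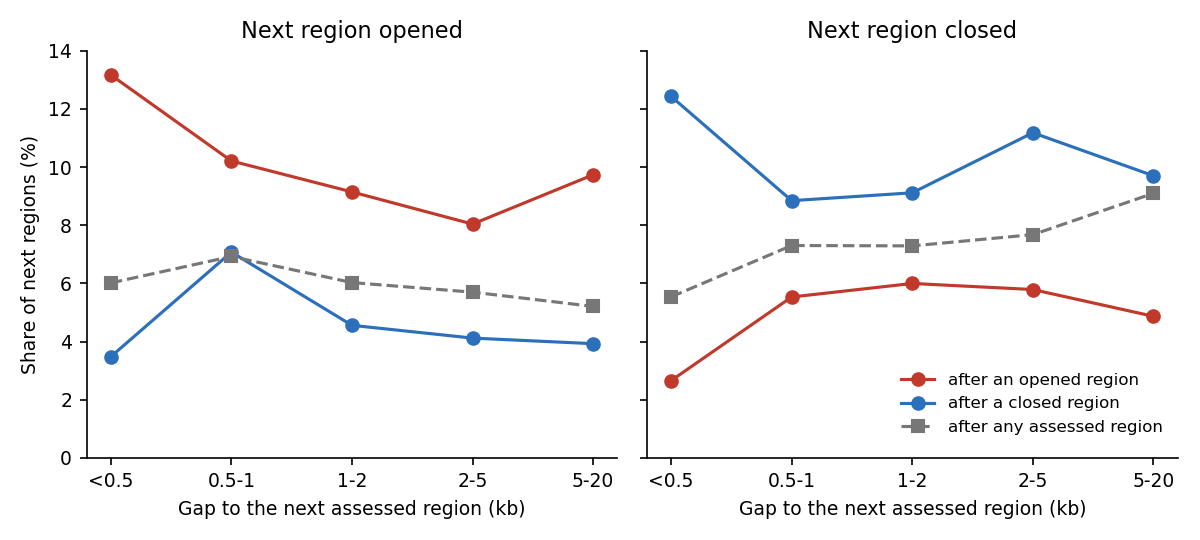
Percent of next assessed regions that were opened (left) or closed (right) on the vertical axis, by the gap in kb to that region on the horizontal axis, after an opened region, a closed region or any assessed region. Same-direction shares are 13.2% and 12.4% at gaps under 500 bp, against 6.02% and 5.54% after any region.

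Joined across gaps of at most 5 kb, opened regions formed 167 groups of at least 3 with 573 regions (13.4% of those opened), and closed regions 198 groups with 668 regions (14.4%). The largest group of each kind had 9 members. At gaps of at most 2 kb there were 71 opened and 58 closed groups, and at 10 kb 330 and 375. Most moved regions thus lay outside groups of this size at each of these distances. Groups were counted for no other set of regions, so how many the density of assessed regions alone would give was not tested.

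Of the 3 opened groups with most members, 1 lay on NW_016033966.1 from 9978187 to 9987050, where 9 of the 10 assessed regions in 8.86 kb were opened and none was closed. Its members had mean covered lengths of 114.5 to 857.5 bp, and the 78% libraries listed 6 and 5 of them. The 48% libraries listed 1 and 3, and the 0% libraries 3 and 4. Another group of 9 lay on the same scaffold from 54639 to 67948, among 17 assessed regions. The 78% libraries listed 4 and 5 of these members, those of 48% listed 0 and 2, and those of 0% listed 1 and 0. The other, on NW_016033618.1 from 5918342 to 5930584, held 7 opened among 14 assessed regions, with 4 and 3 listed at 78%.

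The group of 9 closed regions on NW_016033655.1, from 119928 to 139661, held 23 assessed regions in 19.7 kb. Of its members, the 0% libraries listed 4 and 6, those of 48% listed 1 and 2, and those of 78% listed 1 and 3. On NW_016033618.1, from 1922061 to 1929554, 7 of 10 assessed regions were closed, and the 48% libraries listed 0 and 1 of them. On NW_016033069.1, from 794709 to 809244, 6 of 14 were closed and neither 48% library listed any. Members of these 3 groups were thus seldom listed at 48%, where the closed regions as a whole stood at 44.2% and 64.0%. None of the 6 groups held a region of the opposite direction. Their spans held 10 to 23 assessed regions each, members included, and 6.06% of all assessed regions were opened and 6.55% closed. The groups were picked for members of like direction, and this absence was not tested.

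Opened regions lay nearer than closed ones to a region that all 4 libraries listed. The median distance was 640 bp for opened and 1058 bp for closed regions, and 33.0% of closed regions but 43.2% of opened ones lay under 500 bp away. Regions listed by all 4 lay at a median of 379 bp from the next of their kind, and regions listed by 1 of the 4 libraries at 1006 bp. On scaffolds with no region listed by all 4 to measure from lay 107 opened and 30 closed regions. The density of regions differed between scaffolds, and its part in these distances was not tested.

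Both directions occurred in most windows that held many assessed regions. Of 3426 windows of 100 kb with an assessed region, 1211 had at least 20. The medians per window were 52 assessed, 3 opened and 3 closed regions. How many windows would hold both directions from the overall shares alone was not tested. Of these 1211, 1005 held both opened and closed regions, 65 held opened ones alone and 126 closed ones alone. The most in 1 window were 17 opened and 14 closed. Opened regions occurred on 494 of the 2167 scaffolds with an assessed region and closed ones on 248. The 5 scaffolds with most assessed regions held 34.1% of these, 34.6% of the opened and 35.1% of the closed regions.

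The shares on these 5 scaffolds were close to those over all. NW_016033966.1 held 6496 assessed regions with 396 opened and 439 closed, NW_016033940.1 held 5250 with 338 and 361, and NW_016033960.1 held 4781 with 265 and 355. NW_016033734.1 held 4120 with 260 opened and 250 closed, and NW_016033298.1 held 3446 with 222 and 220. On the 2130 scaffolds with fewer than 200 assessed regions each, 5.95% of 10816 regions were opened and 3.80% closed.

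Over the 37 scaffolds with at least 200 assessed regions, the closed share varied more than the opened share. Closed shares ran from 2.03% to 13.8% around a median of 6.89%, and opened shares from 2.79% to 8.18% around 6.10%. The highest closed shares were on NW_016033728.1 (48 of 349 regions, 13.8%, 95% Wilson interval 10.5% to 17.8%), NW_016030795.1 (24 of 201, 11.9%) and NW_016033668.1 (117 of 989, 11.8%). The highest opened shares were on NW_016033578.1 (18 of 220, 8.18%, interval 5.24% to 12.6%), NW_016033052.1 (22 of 269, 8.18%, 5.46% to 12.1%) and NW_016033873.1 (71 of 902, 7.87%, 6.29% to 9.81%). The intervals of NW_016033578.1 and NW_016033052.1 include the share over all assessed regions, 6.06%. These intervals cover counting error only, and neighbouring regions are not independent.

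**Figure D4:**
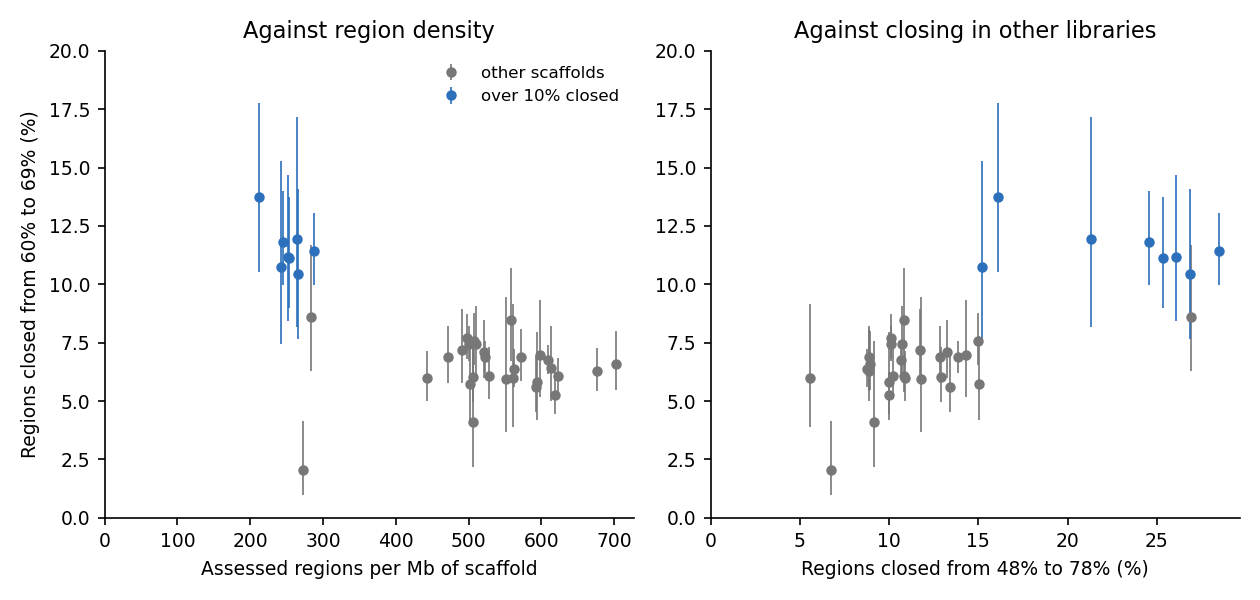
Percent of assessed regions closed from 60% to 69% (vertical axis) on each of the 37 scaffolds with at least 200 assessed regions, against assessed regions per Mb (left) and against the percent closed from 48% to 78% (right); bars are 95% Wilson intervals and blue points the scaffolds with over 10% closed. The blue points lie between 213 and 287 regions per Mb and between 15.2% and 28.5% closed from 48% to 78%.

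On 8 of these scaffolds more than 10% of the assessed regions were closed, a limit chosen after the values were seen. They held 4856 assessed regions, 6.87% of all, with 241 opened ones (4.96% of the regions there) and 560 closed ones, 12.1% of all closed. That excess of closed regions follows from how these scaffolds were chosen. Their density, up to the last listed base of each scaffold, was 213 to 287 assessed regions per Mb, against 272 to 703 with a median of 529 on the other 29 scaffolds, of which 2 were as sparse. One of these, NW_016033612.1, had 8.59% closed, and the other, NW_016033048.1, had 2.03%. Without the 8 scaffolds the closed share over all assessed regions was 6.18% and the opened share 6.14%. A lower closed share without them is likewise set by their choice.

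The same 8 scaffolds also stood high in the comparison of 48% with 78%. There 15.2% to 28.5% of their assessed regions were closed, against a median of 10.7% on the other 29, whose highest was 26.9% on NW_016033612.1. As a share of all entries in a library, those on the 8 scaffolds made up 9.08% and 8.34% at 0%, 9.25% and 9.53% at 48%, 7.59% and 7.25% at 60%, 6.76% and 6.66% at 69%, and 6.34% and 5.58% at 78%. Both libraries of each later stage from 60% on were below both of the stage before it. The order of 60% and 69% follows in part from the choice of these scaffolds, whereas the 0%, 48% and 78% libraries took no part in that choice.

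**Figure D5:**
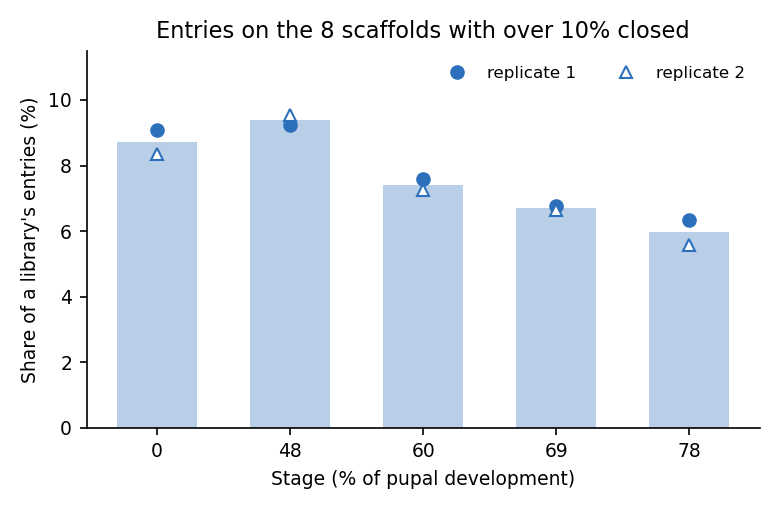
Entries on the 8 scaffolds with over 10% closed regions as a percent of all entries in each D. biarmipes library (vertical axis), by stage in percent of pupal development (horizontal axis), 1 point per library. The share lies between 9.25% and 9.53% at 48% and between 5.58% and 6.34% at 78%.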

How the data were processed

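Sequencing reads were processed by the authors; Bowtie2, Picard, SAMtools, MACS2 and HOMER are named in the submitters' processing notes, without versions. Each deposited list came from HOMER's region search in a single library, per the file headers, and gives coordinates and a score that is 1 throughout, so a region is either listed or not and no strength can be tested. Entries ran from wide to narrow (Spearman rho of position and width -0.963 to -0.971 in the 4 libraries). Opened regions stood late, at median positions of 65.5% and 71.1% of the 69% lists, and closed ones at 66.6% and 71.7% of the 60% lists. Regions listed by all 4 stood between 31.88% and 34.35%. For the D. biarmipes scaffolds no build is named in the labels or headers; dm6 stands in the notes of all samples. Pooled lists were not used. The total tags, fragment length and share of tags in regions were read from the deposited headers.

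Lists were merged where entries overlapped by at least 1 base (Python 3.11.15, numpy 2.4.6, pandas 2.3.3, scipy 1.17.1), and the scripts were tested on simulated lists. Single values per library were compared by exact two-sided permutation. Regions named are the widest, the groups with most members and the scaffolds with most regions or highest shares. These and the opened and closed sets were chosen with earlier results of these data known. Shares carry counting error only, and depth was 72540538 to 123870286 tags in the 4 libraries. Alternatives changed the overlap needed, the union, the number and width of entries, bins, group gaps and the replicates used.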

Additional observations from a re-analysis of the deposited data

How the results depend on the processing

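The counts of opened and closed regions stayed within 1.5 times 4282 and 4629 when 50% of a region had to be covered, with a union of the 4 lists alone, in 1 kb bins, with an equal number of entries per library and on scaffolds with at least 1000 assessed regions. They fell to 2609 opened and 2957 closed with the first 50% of each list and to 1957 and 2174 with entries of at least 300 bp. Both settings leave fewer entries by construction, and the shares of assessed regions rose from 6.06% opened and 6.55% closed. These were 7.43% and 8.42% of 35112 regions with the first 50%, and 8.48% and 9.42% of 23085 with entries of at least 300 bp. Where no entry of the other stage lay within 500 bp, a stricter rule, the counts fell to 2072 and 2665. These were 2.93% and 3.77% of the same 70662 assessed regions. Leaving out 1 replicate of each stage gave 10071 to 11121 opened and 10972 to 11230 closed regions, since 1 library then stood for a stage. Requiring the same direction in each same-numbered pair, the replicate block, gave 4282 and 4629 again, because for presence and absence it is the same rule. The deviations of same-numbered libraries from their stage means correlated at r = 0.017 over the 70662 assessed regions, so the main rule did not take the numbers as pairs. Counts and changes in covered length given by same-numbered pair therefore describe 1 way of matching the libraries. The share of opened regions listed by both 78% libraries ranged from 39.8% to 58.2% over these settings, and that of closed regions from 0.644% with entries of at least 300 bp to 20.9% in replicate 2 alone, where 1 library stood for 78%. The share of next neighbours of like direction ranged from 11.0% to 23.6% for opened and from 10.4% to 28.4% for closed regions; its highest values came from single pairs, where 16.7% to 17.4% of assessed regions were opened and 17.1% to 18.7% closed. The lists give no depth per region, so a region just under the caller's threshold cannot be told from an inaccessible one.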
